A study of Homo sapiens with 16 samples.

Results

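GPR139 is a gene on the minus strand of chromosome 16 that encodes a G protein-coupled receptor, and H3K9me2 over its transcription start site (TSS) is described here in wild-type and ΔLEO1 fibroblasts. H3K9me2 is dimethylated lysine 9 of histone H3, a mark of silent chromatin. The gene was chosen by measured values, its fall in ΔLEO1 cells in 0.1% serum, so that contrast is given as a description with no test. In the table of TSS windows, 2 of 272902 windows carry the symbol GPR139, and these were taken as its members. The surroundings were everything counted within 572.1 kb at lower and 508.0 kb at higher coordinates on that chromosome, which gave 155 windows, 141 of them with distinct coordinates, from 25 named genes or gene identifiers, and 5 of the 16092 peak regions.

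The cells were BJ-5ta, a human fibroblast line made immortal by telomerase. WT cells and ΔLEO1 cells, a single clone in which CRISPR/Cas9 removed the first exons of LEO1, were grown in medium with 10% serum or held for 10 days in 0.1% serum, in which fibroblasts leave the cell cycle. LEO1 is part of the PAF1 complex, a partner of RNA polymerase II in transcription. Each of the 4 combinations had 2 H3K9me2 ChIP libraries and 2 libraries of input DNA, marked A and B, where input is sonicated chromatin sequenced without the antibody. Nothing in the labels says that A and B were separate cultures, so p-values measure only the spread between these libraries. ΔLEO1 10% serum ChIP replicate A held 54 reads over all TSS windows and was left out, which leaves 1 ΔLEO1 ChIP library in 10% serum. Over the TSS windows, depth ran from 2153836 to 3696942 reads in the other 7 ChIP libraries and from 3267811 to 9238282 in the 8 inputs. The paper reports no detectable LEO1 protein in the ΔLEO1 clone by Western blot and a loss of the targeted sequence by PCR. In start windows, which need not cover the deleted stretch, input over LEO1 did not separate the genotypes. As CPM of the reads over TSS windows, without TMM, its window of ENST00000299601 held 3.80 to 5.74 in the 4 WT inputs and 2.84 to 4.90 in the 4 ΔLEO1 inputs, and that of ENST00000558949 held 3.47 to 5.51 and 2.75 to 4.14, with overlap at both. DNA counts hold no expression, so fibroblast identity and transcription of GPR139 were not measured.

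GPR139 belongs to the rhodopsin class of receptors. It is known mainly from the brain, where it is found in the habenula and related regions, and it responds to the aromatic amino acids tryptophan and phenylalanine, chiefly through the G protein Gq and phospholipase C. GPR142 is its closest relative and responds to the same amino acids. H3K9me2 is laid down largely by the methyltransferases G9a and GLP and often covers wide stretches of chromatin in which genes of other tissues are silent.

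Both members are windows of 2000 bp around annotated starts of ENSG00000180269. The window of ENST00000326571 spans chr16:20072767-20074767 and that of ENST00000570682 spans chr16:20072890-20074890. Their starts lie 123 bp apart, they share 1877 bp (93.8% of each), and the same fragments were counted in both, so they are one measurement and not replicates. RefSeq places the gene at chr16:20028239-20073890 (GRCh38.p14, minus strand). The 250 bases upstream of the RefSeq start at 20073890 lie inside both windows and are shown because the fall described here was read over them. They are written 5′ to 3′ on the minus strand (chr16:20073891-20074140, GRCh38.p14, from RefSeq), with each CpG in capitals.
GPR139 upstream region: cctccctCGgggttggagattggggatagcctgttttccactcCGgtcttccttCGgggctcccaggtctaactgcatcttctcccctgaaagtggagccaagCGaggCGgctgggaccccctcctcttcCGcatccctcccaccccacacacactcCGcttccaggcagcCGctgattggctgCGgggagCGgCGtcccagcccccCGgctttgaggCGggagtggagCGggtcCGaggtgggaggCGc

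The upstream sequence was 67.2% G and C and held 16 CpG. Together with the first 50 bases of the transcript it was 70.0% G and C, which was above 79.7% of 35116 promoters of the same length, and its 24 CpG were above the count in 66.1% of them. The median promoter had 58.7% G and C and 14 CpG. Of 4 short motifs searched on both strands, the letters CCAAT occurred 2 times in this window and in 34.6% of all promoters. A GC box (GGGCGG) was not found in this window and occurs in 45.0% of promoters. The TATA box letters TATAAA, present in 11.5% of promoters, were not found either. The same holds for TGACG, the core of a cyclic AMP response element, which 24.6% of promoters hold. These matches describe letters only.

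In 0.1% serum the GPR139 start carried a high level of H3K9me2 in WT cells and a mean level under that of input in ΔLEO1 cells. In the window of ENST00000326571, WT ChIP replicates A and B held 34 and 33 reads, and ΔLEO1 replicates A and B held 9 reads and 1 read. As CPM, reads scaled to the total over TSS windows of the library and its TMM factor, these are 10.3 and 12.1 CPM in WT and 2.40 and 0.395 CPM in ΔLEO1. Both ΔLEO1 libraries lay below both WT libraries. ΔLEO1 replicate A was above the ΔLEO1 input mean of 2.23 CPM and replicate B below it, so the mean under input rests on replicate B. The exact Poisson 95% interval of the single read in ΔLEO1 replicate B reached from 0.01 to 2.2 CPM and that of replicate A from 1.10 to 4.55 CPM, and such intervals cover counting error only. The group means were 1.40 ± 1.42 CPM in ΔLEO1 against 11.2 ± 1.32 CPM in WT (SD, n = 2 each), so WT was 8.02-fold higher. The fitted log2 fold change was -2.37 with a standard error of 0.41, the lowest of 159524 windows tested. The second window gave -2.19 with a standard error of 0.40, from 33 and 30 reads in WT and 9 and 2 in ΔLEO1.

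In 10% serum the difference was smaller and did not pass the test. WT ChIP replicates held 33 and 24 reads in the window of ENST00000326571 (12.6 and 7.74 CPM), and the 1 usable ΔLEO1 library held 11 reads (5.15 CPM, exact 95% interval 2.57 to 9.21). The ΔLEO1 library was below both WT libraries, but its interval included the lower WT value. The log2 fold change was -0.87 with a standard error of 0.45 (adjusted p = 0.545, edgeR quasi-likelihood test with Benjamini-Hochberg adjustment), and 11447 windows had a fold change as low. With 1 library on the ΔLEO1 side its spread was taken from the other groups. In all windows tested, 0.347% were called at an adjusted p under 0.05 in 0.1% serum and 0.0295% in 10% serum. Whether the falls in 0.1% and 10% serum differ from each other was not tested.

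The WT level of GPR139 differed by less between the sera than between replicates. The WT mean was 11.2 ± 1.32 CPM after 10 days in 0.1% serum against 10.2 ± 3.44 CPM in 10% serum (SD, n = 2 each), with overlapping libraries and a fitted log2 difference of 0.15 with a standard error of 0.27. The groups ordered from high to low were WT in 0.1% serum, WT in 10% serum, ΔLEO1 in 10% serum and ΔLEO1 in 0.1% serum. The first 2 of these did not differ beyond their spread, and the remaining libraries did not overlap between neighbouring groups.

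The input showed no such fall. In 0.1% serum the inputs held 18 and 19 reads in WT (2.53 and 2.76 CPM) and 10 and 22 reads in ΔLEO1 (1.88 and 2.59 CPM), and the groups overlapped. The log2 fold change was -0.18 with a standard error of 0.38 (adjusted p = 0.997, edgeR). In 10% serum the inputs held 13 and 29 reads in WT (2.15 and 3.14 CPM) and 3 and 25 reads in ΔLEO1 (0.939 and 2.95 CPM). There the log2 fold change was -0.19 with a standard error of 0.38 (adjusted p = 0.951, edgeR), and single libraries decided it. It was 0.10 without ΔLEO1 replicate A, the shallowest input, 0.12 without WT replicate B, and -1.29 without ΔLEO1 replicate B (adjusted p = 0.332, edgeR), which is lower than the ChIP value in 10% serum. These standard errors leave room for an input difference about as large as the ChIP difference in 10% serum.

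**Figure D1:**
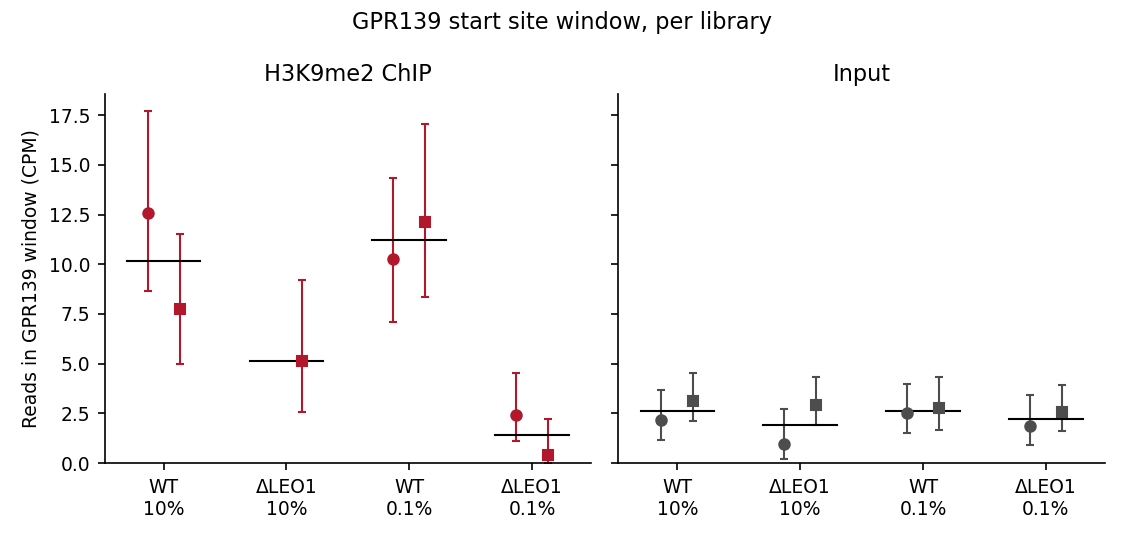
Reads in the GPR139 window of ENST00000326571 in each library, in CPM (y axis), by genotype and serum (x axis), for ChIP (left) and input (right). Circles are replicate A, squares replicate B, vertical bars exact Poisson 95% intervals and horizontal lines group means. ChIP in ΔLEO1 0.1% serum sits at 0.395 and 2.40 CPM against 10.3 and 12.1 CPM in WT, while every input lies between 0.939 and 3.14 CPM.

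Set against input, GPR139 stood high among all windows in WT and low in ΔLEO1 in 0.1% serum. The ratio of mean ChIP CPM to mean input CPM was 4.24 in WT, above that of 99.5% of 159201 windows, and 0.626 in ΔLEO1, above that of 10.4%. The low ΔLEO1 ratio rests on ChIP replicate B, since replicate A, at 2.40 CPM, was above the ΔLEO1 input mean of 2.23 CPM. In 10% serum the ratio was 3.85 in WT (above 96.9% of windows) and 2.65 in ΔLEO1 (above 89.0%). The median ratio over all windows lay between 1.27 and 1.37 in the 4 conditions. These ratios share the ChIP libraries by which the gene was chosen and are a description. All values here are relative to each library's own reads over TSS windows, so a change of H3K9me2 shared by the whole genome would not be seen in them. With spike-in scaling, the paper reports a genome-wide rise of H3K9me2 in quiescent ΔLEO1 cells, with far fewer regions reduced. Among regions around TSSs it likewise reports many increased and a small number reduced, and its text does not name the genes. The rise is opposite in direction to the relative fall at GPR139. The fall is therefore not a measure of total H3K9me2, and whether it holds on a spike-in scale was not tested.

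GPR139 stands in a wide interval without other counted starts. The nearest window at lower coordinates belongs to GPRC5B, an orphan receptor of another class, and ends 185.6 kb away. The nearest at higher coordinates, of the unnamed gene ENSG00000277211, begins 79.8 kb away. The genes at lower coordinates (GDE1, CCP110, VPS35L, KNOP1, IQCK and GPRC5B) include widely used ones, such as VPS35L for endosomal recycling and CCP110 for centrioles. Those at higher coordinates are largely genes of particular organs: GP2 of the pancreas, UMOD of the kidney, PDILT of the testis, and the acyl-CoA synthetase genes ACSM5, ACSM2A and ACSM2B of liver and kidney.

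The sides differed in H3K9me2 already in WT cells. Over 32 windows that do not overlap each other at lower coordinates, WT ChIP libraries in 0.1% serum summed to 146.2 and 141.9 CPM and inputs to 133.8 and 140.1 CPM, a ratio of ChIP to input of 1.05. Over 28 such windows at higher coordinates the ChIP libraries summed to 184.6 and 183.1 CPM and the inputs to 81.7 and 87.4 CPM, a ratio of 2.17. In 10% serum the ratios in WT were 0.947 and 2.75. GPR139, at 4.24, lay above every tested window of either side in WT 0.1% serum, the highest of which was an ACSM2B window at 3.92. This rank uses ChIP libraries by which GPR139 was chosen, so it is a description.

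Summed over windows, ChIP was lower in ΔLEO1 at higher coordinates, by less than at GPR139, and not at lower coordinates. In 0.1% serum ΔLEO1 ChIP libraries summed to 130.0 and 138.3 CPM over the 28 windows of the higher side, 0.730 times the WT mean, and the groups did not overlap. Means were 134.2 ± 5.84 CPM in ΔLEO1 and 183.8 ± 1.03 CPM in WT (SD, n = 2 each, exact permutation test, two-sided p = 0.333, the smallest that 2 against 2 allows). In 10% serum the single ΔLEO1 library was at 172.2 CPM and WT at 230.7 and 198.8 CPM, a ratio of 0.802. The sum of the lower side went the other way, with 152.3 ± 0.91 CPM in ΔLEO1 and 144.1 ± 3.02 CPM in WT in 0.1% serum (exact permutation p = 0.333) and a ratio of 1.22 in 10% serum. Input sums of the higher side differed by little, at 0.997 times WT in 0.1% serum (exact permutation p = 0.667) and 1.03 times WT in 10% serum (exact permutation p = 0.333). In 10% serum the ΔLEO1 inputs, at 80.45 and 81.2 CPM, lay above the WT inputs, at 78.7 and 77.35 CPM, without overlap. Input sums of the lower side were 1.00 times WT in 0.1% serum and 1.08 times WT in 10% serum (exact permutation p = 0.667 in 10% serum).

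**Figure D2:**
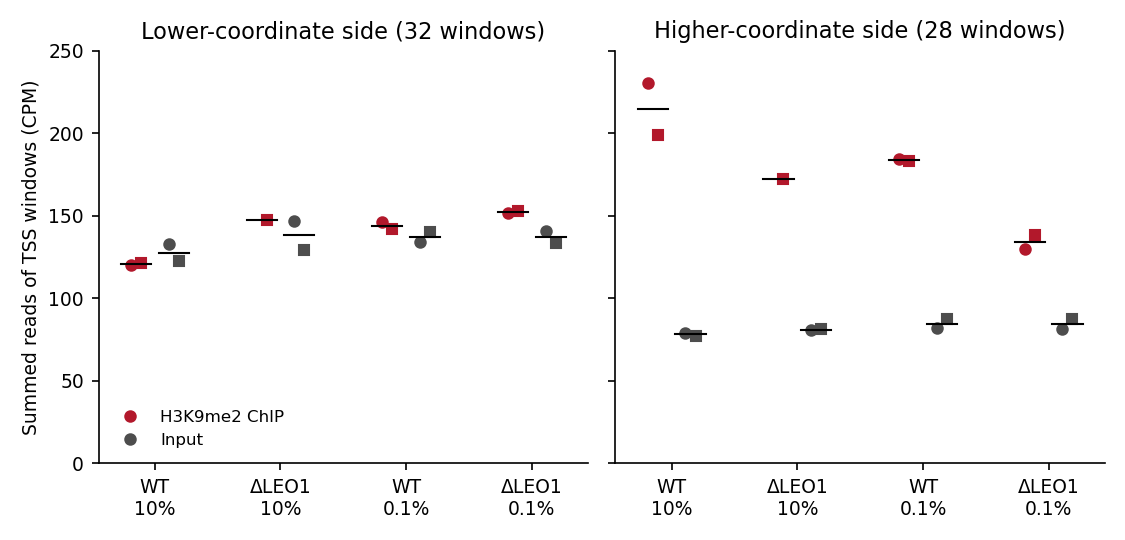
Summed reads, in CPM (y axis), over TSS windows that do not overlap each other at lower (left, 32 windows) and higher coordinates (right, 28 windows) than GPR139, by genotype and serum (x axis). Red is ChIP, grey is input, circles are replicate A, squares replicate B and lines group means. On the right, ΔLEO1 ChIP in 0.1% serum sits at 130.0 and 138.3 CPM, below WT at 183.1 and 184.6 CPM, and inputs stay between 77.3 and 87.4 CPM.

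Window by window, 116 of the 141 distinct windows around GPR139 had enough ChIP reads to be tested. In 0.1% serum 5 were called, all lower in ΔLEO1 and all at higher coordinates, where the share over all windows was 0.347%. The 66 tested windows of the higher side had a median log2 fold change of -0.51 and 58 were below 0. Of the 66, 16 were windows of ACSM2A, 14 of them below 0, and 19 were of ACSM2B, 18 of them below 0. Many of the 66 overlap, and those genes are near-identical copies, so the counts are not of separate places. The 50 tested windows of the lower side had a median of -0.0033, and 27 were below 0. The median over all tested windows was -0.0078. DESeq2 called 0 of the 116 (9 at an unadjusted p under 0.05, against 18 by edgeR), and it called 0 of all 159524 windows. Overlapping windows share reads, so the 5 called windows stand for only 2 places.

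The first place is a start of UMOD, which encodes uromodulin, the main protein of urine, 277.7 kb from GPR139. The window of ENST00000570972 (chr16:20350438-20352438) held 29 and 24 ChIP reads in WT 0.1% serum and 7 and 7 in ΔLEO1. These are 8.76 and 8.82 CPM against 1.86 and 2.77 CPM, with no overlap. The log2 fold change was -1.70 with a standard error of 0.40 (adjusted p = 0.00196, edgeR). The other 2 called UMOD windows overlap it and gave -1.70 (ENST00000576546) and -1.58 (ENST00000574195). In 10% serum this window held 27 and 26 reads in WT and 9 in ΔLEO1, a log2 fold change of -1.02 with a standard error of 0.49 (adjusted p = 0.481, edgeR). In input this window gave -0.25 in 0.1% serum and -0.12 in 10% serum (adjusted p = 0.989 and 0.973, edgeR). The other 2 called windows had a lower mean input in ΔLEO1 in 0.1% serum. Means were 2.89 ± 0.42 CPM against 4.00 ± 0.11 CPM in WT at ENST00000576546 (SD, n = 2 each). At ENST00000574195 they were 2.735 ± 0.373 and 4.14 ± 0.11 CPM. Of the 9 UMOD windows 4 were below 0 in 0.1% serum input, with a lowest value of -0.58, a median of 0.19 and none called. All 9 distinct UMOD windows were below 0 in ChIP in both sera, with medians of -0.94 in 0.1% serum and -0.94 in 10% serum. The UMOD call was lost without ΔLEO1 replicate A (-1.43, adjusted p = 0.249) and without WT replicate A (-1.70, adjusted p = 0.0649).

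The second place is the start of ACSM5, 335.8 kb away, an enzyme that activates medium-chain fatty acids. The window of ENST00000331849 (chr16:20408534-20410534) held 36 and 27 ChIP reads in WT 0.1% serum and 14 and 13 in ΔLEO1, or 10.9 and 9.93 CPM against 3.73 and 5.14 CPM. The log2 fold change was -1.16 with a standard error of 0.33 (adjusted p = 0.0344, edgeR), and a window starting 12 bp further gave -1.18. This call was lost when any 1 of the 4 libraries was left out (adjusted p between 0.0754 and 0.43). In 10% serum the value was -0.36 with a standard error of 0.44 (adjusted p = 0.871, edgeR), and in 0.1% serum input it was -0.05. Other ACSM5 starts further along gave between -0.52 and 0.06 in 0.1% serum ChIP.

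Between GPR139 and these places the windows did not form an even slope. ENSG00000277211, the nearest, held 27 and 19 ChIP reads in WT 0.1% serum and 35 and 18 in ΔLEO1, a log2 fold change of 0.13 with a standard error of 0.30 (adjusted p = 0.903, edgeR). The next, ENSG00000263253 at 135.2 kb, held 28 and 22 reads in WT and 16 and 6 in ΔLEO1 (-1.10 ± 0.36 SE, adjusted p = 0.0838, edgeR). SNRPEP3 at 165.5 kb, a pseudogene of the splicing protein gene SNRPE, held 44 and 23 against 23 and 10 reads (-0.99 ± 0.30 SE, adjusted p = 0.0694, edgeR). In both of these the ΔLEO1 libraries lay below the WT libraries in CPM, without passing the test. Input of ENSG00000263253 in 0.1% serum was also lower, at 3.56 and 3.06 CPM in ΔLEO1 against 4.92 and 4.07 CPM in WT. Its input log2 fold change was -0.43 (adjusted p = 0.943, edgeR), and that of SNRPEP3 was -0.23 (adjusted p = 0.989, edgeR). GP2 had a median of -0.17 over 8 windows, PDILT -0.44 over 2, ACSM2A -0.49 over 16 and ACSM2B -0.65 over 19. ACSM2A and ACSM2B are near-identical copies between which reads may have been split, so their separate values are uncertain. The highest value of this side, 0.84, was at ENSG00000263237 (adjusted p = 0.48, edgeR).

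On the lower side no gene passed the test in 0.1% serum ChIP. The lowest value was at the GPRC5B start (ENST00000568214), with 16 and 9 reads in WT and 4 and 2 in ΔLEO1 and a log2 fold change of -1.55 with a standard error of 0.70 (adjusted p = 0.166, edgeR). These are 4.83 and 3.31 CPM against 1.07 and 0.79 CPM, with no overlap. Of the 8 tested GPRC5B windows 7 were below 0, with a median of -0.91, close to that of UMOD. All 4 windows of the lower side at an unadjusted p under 0.05 (edgeR) were overlapping windows of this start and lower in ΔLEO1. Its mean ChIP level was under its input level in every group, with 4.07 ± 1.08 CPM of ChIP and 4.37 ± 1.01 CPM of input in WT 0.1% serum (SD, n = 2 each). The highest value was 0.96 at GDE1, a phosphodiesterase gene. VPS35L had a median of 0.02 over 16 tested windows, CCP110 -0.13 over 10 and IQCK 0.13 over 5.

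In 10% serum ChIP none of the 116 windows was called by edgeR, against 0.0295% of all windows. At an unadjusted p under 0.05 there were 14, of which 11 were lower in ΔLEO1, and DESeq2 had 0 at either threshold. The higher side had a median of -0.43 with 45 of 66 windows below 0, and the lower side a median of 0.0055. On the higher side 3 of 16 ACSM2A windows and 16 of 19 ACSM2B windows were below 0, and these overlap as before. The lowest value was again at UMOD (-1.33, adjusted p = 0.322, edgeR) and the highest were at CCP110 (1.14) and ACSM2B (0.89). The sera share no libraries, but the values in 10% serum rest on 1 ΔLEO1 library.

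In input, 138 of the 141 windows were tested and none was called in either serum, against 0.0% of all windows in 0.1% serum and 0.0021% in 10% serum. At an unadjusted p under 0.05 edgeR had 2 in 0.1% serum and 1 in 10% serum, and DESeq2 had 0 in both. Medians of the higher side were -0.03 in 0.1% serum and 0.21 in 10% serum. They lean on the many windows of ACSM2A (medians -0.59 and 0.69) and ACSM2B (0.28 and 0.69). With all 8 inputs in the fit, the lowest value of any surrounding window was -0.59 in 0.1% serum (ACSM2A) and -0.63 in 10% serum (KNOP1).

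**Figure D3:**
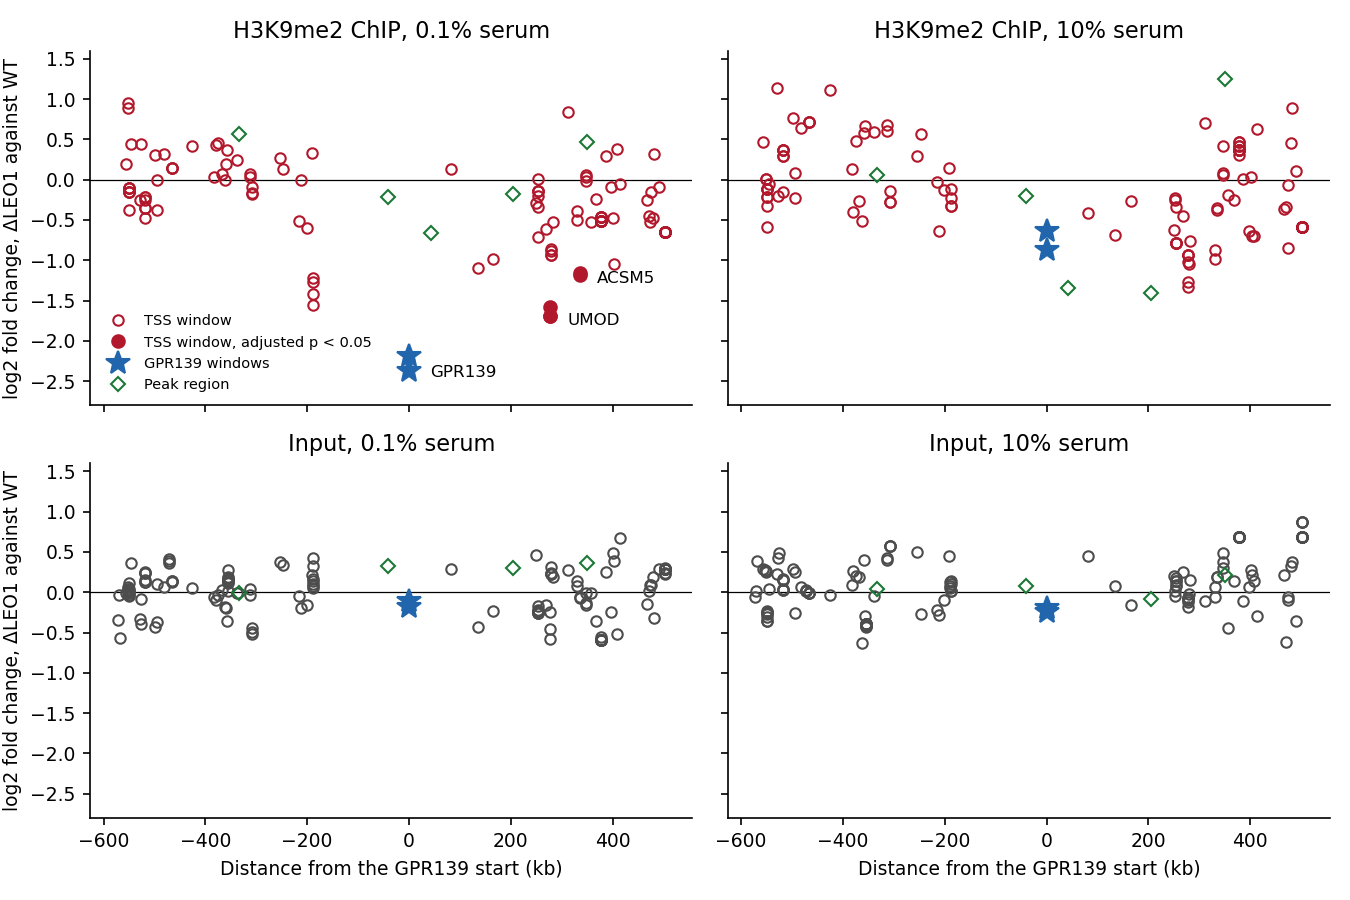
Log2 fold change of ΔLEO1 against WT (y axis) by distance from the GPR139 start in kb (x axis, coordinates rising to the right) for ChIP (top) and input (bottom) in 0.1% serum (left) and 10% serum (right). Circles are TSS windows, filled where the adjusted p was under 0.05, diamonds are peak regions and stars the 2 GPR139 windows. In 0.1% serum ChIP the stars lie at -2.37 and -2.19, UMOD and ACSM5 are filled, and 58 of 66 windows to the right lie below 0. Many of the 66 overlap, and 16 of them are of ACSM2A and 19 of its near-identical copy ACSM2B.

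Summing the windows that do not overlap each other, without those of GPR139, into bins of 100 kb gave more reads per value. In 0.1% serum ChIP 2 of 9 bins were called, both lower in ΔLEO1, where 3.05% of all 22233 bins tested were called. The bin chr16:20200001-20300000, which holds ENSG00000263253 and SNRPEP3, had 72 and 45 reads in WT and 39 and 16 in ΔLEO1, a log2 fold change of -1.10 with a standard error of 0.23 (adjusted p = 0.000189, edgeR). The bin chr16:20300001-20400000, which holds GP2, UMOD and ENSG00000263237, had 163 and 125 reads in WT and 103 and 93 in ΔLEO1 (-0.61 ± 0.14 SE, adjusted p = 0.00115, edgeR). The following bins gave -0.32 (adjusted p = 0.0796) and -0.45 (adjusted p = 0.0525), the last of which ends at the edge of the interval examined. The bin between GPR139 and the first of these holds 1 window and gave 0.13, and the 4 bins at lower coordinates gave between -0.08 and 0.38, none called. Without WT replicate A neither bin was called (-0.88 with adjusted p = 0.11 and -0.56 with adjusted p = 0.09, edgeR), and without ΔLEO1 replicate A only the first was (-1.53, adjusted p = 0.00214, edgeR). DESeq2 called neither, with 3 of the 9 bins at an unadjusted p under 0.05.

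In 10% serum ChIP no bin was called, against 0.49% of all bins, with 2 of 9 at an unadjusted p under 0.05 by edgeR and 1 by DESeq2. The same bins gave -0.50 (adjusted p = 0.486) and -0.60 (adjusted p = 0.0957), and the lower-side bins gave between 0.05 and 0.45. In input no bin was called in either serum, against 0.133% of all bins in 0.1% serum and 0.0133% in 10% serum, and none of the 9 had an unadjusted p under 0.05 by either tool. The bins called in ChIP gave -0.29 and 0.04 in 0.1% serum input. In the first of these, input was 17.9 and 21.8 CPM in ΔLEO1 against 24.69 and 24.95 CPM in WT, without overlap (adjusted p = 0.887, edgeR).

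**Figure D4:**
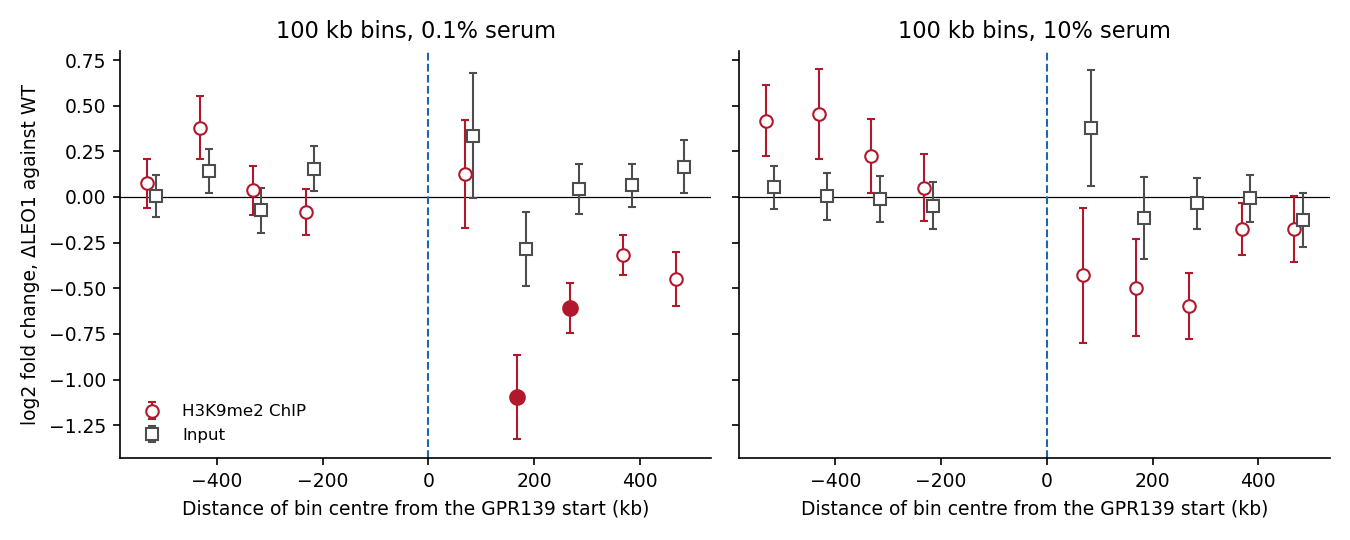
Log2 fold change of ΔLEO1 against WT (y axis) in 100 kb bins by the distance of the bin centre from the GPR139 start, in kb (x axis), in 0.1% serum (left) and 10% serum (right). Red circles are ChIP, grey squares input, bars are standard errors, filled symbols have an adjusted p under 0.05 and the dashed line marks GPR139. In 0.1% serum 2 bins at higher coordinates are filled, at -1.10 and -0.61.

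No peak region near the gene passed the test. The nearest at lower coordinates lies in the GPR139 intron (chr16:20032666-20033405), 40.7 kb from the start, with 16 and 22 ChIP reads in WT 0.1% serum and 18 and 9 in ΔLEO1 (-0.22 ± 0.42 SE, adjusted p = 0.919, edgeR). The nearest at higher coordinates is an AluSx1 repeat (chr16:20116646-20117184), 43.1 kb away, with 19 and 5 reads against 7 and 4 (-0.66 ± 0.78 SE, adjusted p = 0.827, edgeR). The groups overlapped at both. In 10% serum their values were -0.20 and -1.35, with 13 and 2 reads in the ΔLEO1 library. None of the 5 peak regions was called in ChIP, where 0.0621% of all peak regions were called in 0.1% serum and 0.0% in 10% serum, and none of 4 tested in input, where 0.0% were called in both sera. At an unadjusted p under 0.05 both edgeR and DESeq2 had 0 in 0.1% serum ChIP, 1 in 10% serum ChIP and 0 in input. The 1 by edgeR was a region in an ACSM5 intron 350.4 kb away, at higher coordinates, and it was higher in ΔLEO1. It held 12 and 20 reads in WT and 26 in ΔLEO1 in 10% serum, a log2 fold change of 1.25 with a standard error of 0.46 (adjusted p = 0.593, edgeR), and gave 0.47 in 0.1% serum. At these counts a fall of the size seen at UMOD could not be told from none at the AluSx1 repeat.

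Windows of like base composition were compared with GPR139. Of 973 tested windows whose promoter was within 2 percentage points of its G and C content, 3 (0.308%) were called in 0.1% serum ChIP. The share was 0.367% of all 10364 windows with a listed promoter. None was as low as GPR139, which was fixed beforehand, since the gene was chosen for its fall and was the lowest of all windows tested. The median of the 973 windows was -0.16 in 0.1% serum ChIP and 0.04 in 0.1% serum input, against -0.05 and -0.0088 for all 10364.

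Receptors and signalling genes related to GPR139 were read in the same fit, with 1 window per gene, the one with the most reads. Over all 50477 genes the median log2 fold change was -0.01 in 0.1% serum ChIP and 0.414% were called. On a loose list of 6 receptors, drawn up around aromatic amino acid and taste-type receptors, GPR142 was called and the other 5 were not. The list had a median of -0.11. GPR142 had 9.37 and 8.82 CPM in WT 0.1% serum and 2.13 and 1.58 CPM in ΔLEO1, a log2 fold change of -1.92 with a standard error of 0.41 (adjusted p = 0.000511, edgeR). In 10% serum it had 13.0 and 11.6 CPM in WT and 1.40 CPM in the 1 ΔLEO1 library (-2.62 ± 0.61 SE, adjusted p = 0.00338, edgeR). GPR142 was already known for this fall when the list was drawn up, so its call is not independent. The lowest of the others was GPR35 (-0.68, adjusted p = 0.389, edgeR) and the highest GPRC6A (0.39).

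None of the receptors reported to interact with GPR139 passed the test, in either serum. The 4 genes had a median of 0.27 in 0.1% serum and ranged from -0.64 at DRD2, the dopamine receptor, to 0.35 at OPRM1, the opioid receptor. Of 13 genes of Gq and phospholipase C signalling 9 were tested, with none called in either serum, a median of 0.05 and a range in 0.1% serum from -0.29 at PLCB4 to 0.53 at PRKCB. Of 11 genes of Gi and adenylyl cyclase signalling 10 were tested, with none called, a median of -0.12 and a range from -0.75 at ADCY2 to 0.82 at GNAI2. Among 62 tested genes named GPR and a number other than GPR139 itself the median was -0.01 and 2 were called, both lower: GPR142 and GPR148 (-1.19 ± 0.33 SE, adjusted p = 0.0335, edgeR). GPR148 gave -0.02 in 10% serum.

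The windows whose ChIP profile was most like that of GPR139 were found by Pearson's r of log2 CPM (with 0.5 CPM added) over the 7 ChIP libraries, among 108918 windows with at least 10 reads on average. The 5 genes most like it were ENSG00000288069 (r = 0.998), ACTG1P22 (0.991), RPS3AP2 (0.987), TBRG4 (0.986) and PMFBP1 (0.986). All shared a level that was lowest in the 2 ΔLEO1 0.1% serum libraries, but over a narrower range: ENSG00000288069 had 6.13 and 3.95 CPM there and between 8.42 and 10.7 CPM in the other 5. With 7 libraries in 4 groups 1379 windows had r above 0.9, and the libraries and their depth are shared by every window, so this is a description.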

How the data were processed

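The data are 2 count tables that the authors deposited as unscaled whole reads, over windows of 2000 bp around annotated TSSs and over merged peak regions. The submitters' processing notes name builds hg38 and dm6 and the tools bcl2fastq 2.20.0.422, STAR 2.7.10a and HOMER, and spike-in chromatin was added to the samples. The handling of duplicate reads and the calling of peaks are not given in the sources used here, and no spike-in scaling was applied.

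Counts were tested with edgeR 4.0.16 (R 4.3.3, quasi-likelihood F-test, two-sided), 1 coefficient per group, over 7 ChIP or 8 input libraries. Windows were kept by filterByExpr (minimum count 10), libraries scaled by TMM, and a prior count of 2 was used. P-values were Benjamini-Hochberg adjusted over everything tested, and an adjusted p under 0.05 was called. Standard errors were derived from the F statistic. Bins of 100 kb summed distinct windows that do not overlap. The code was tested on simulated counts. In every group with 2 usable libraries, a chi-square of the replicate counts per degree of freedom was above 1, the value of sampling noise. Over TSS windows the excess was small, with a chi-square per degree of freedom from 1.008 to 1.127, except 1.618 in ΔLEO1 10% serum input. Overlapping TSS windows share reads and are not independent, so a test over them cannot decide whether the smallest of these exceed sampling noise. Over peak regions it ran from 1.095 to 1.819. Deviations of same-lettered replicates from their group means correlated between 0.0034 and 0.11. Counting noise in windows of few reads lowers such correlations, so they cannot decide whether letters paired libraries. The main fit used no pairing.

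The gene, the interval and the gene lists were chosen with earlier results of these data known. Genes were named by a rule: those with called windows, the nearest on each side, and the lowest and highest on each side and in each list. Alternatives were no filter, no TMM, totals of the other table, DESeq2 1.42.0, a replicate block, distinct windows, only the groups compared, a prior count of 0.125, all 8 ChIP libraries, other bin widths and leaving out single libraries.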

Additional observations from a re-analysis of the deposited data

How the results depend on the processing

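GPR139 kept its direction in 0.1% serum ChIP under every alternative run, from -3.38 without ΔLEO1 replicate A to -1.94 without ΔLEO1 replicate B. In 10% serum ChIP it lay between -1.16 and -0.52 and was never called. In 10% serum input it lay between -1.29 and 0.12. With a replicate block GPR139 was -2.38 and -0.73 in ChIP. The block called 3 bins in 0.1% serum ChIP in place of 2, adding the last bin at higher coordinates (-0.45, adjusted p = 0.0437, against 0.0525 without it), and changed no other count of calls. ΔLEO1 10% serum ChIP replicate B could not be left out, since no library of its group would remain, and totals of the other table were not used for bins.

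The 5 called windows around GPR139 in 0.1% serum ChIP were 0 by DESeq2, 0 with all 8 ChIP libraries (a setting chosen after seeing the data for the surroundings), 3 with only the groups compared and 3 with totals of the other table, and between 0 and 3 when 1 library was left out. The 2 called bins were 0 by DESeq2, 3 with the replicate block, and between 0 and 2 when 1 library was left out, with 0 without WT replicate A and 1 without ΔLEO1 replicate A. In 10% serum ChIP 1 bin was called at a width of 200 kb. In 10% serum input, between 0 and 3 windows were called when 1 library was left out, the 3 being higher in ΔLEO1 and called without ΔLEO1 replicate B. The causes were not tested. Of 272 alternative values in all, 225 were labelled unchanged. For tested values this meant the same call, and for counts a number within 1.5 times. For values given without a test it meant a shift under the SD of log2 CPM between replicates, which is wide at GPR139 in 0.1% serum ChIP. Uncalled values that changed sign were among the 225, and no called value changed its sign. Totals of the other table moved the median of all windows to 0.27 in 0.1% serum ChIP, where the higher side stood at -0.26, 0.53 below it, against -0.51 and -0.0078 with TMM.

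Depth limits the reading at GPR139 in ΔLEO1 0.1% serum replicate B, with 1 read, and at the peak regions, and 10% serum ChIP has 1 ΔLEO1 library.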
